A study of Mus musculus with 24 samples.

Results

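Late subjective day was compared with early subjective day in the suprachiasmatic nucleus (SCN), the paired hypothalamic nucleus that keeps daily time in mammals. Early day was the 6 arrays taken at circadian times 0, 2 and 4 (CT 24, 26, 28, 48, 50 and 52), and late day the 6 arrays at circadian times 8, 10 and 12 (CT 32, 34, 36, 56, 58 and 60). These were 12 of the 24 arrays of the series, which has 1 array every 2 h from CT 18 to CT 64. All mice were C57/BL6, had been kept for 3 weeks in cycles of 12 h light and 12 h dark, and were in complete darkness when tissue was taken. Every array carried SCN RNA from 3 mice pooled in equal amounts. The labels name no transgene or drug and give no age or sex. No time had a second array within a cycle, so the spread within a window holds differences between pools and change with time inside the window. The windows were compared as late minus early on the log2 scale, with the cycle as a block that pairs each late window with the early window of the same cycle.

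In the molecular clock, the transcription factors CLOCK and BMAL1 (encoded by Arntl) switch on genes with E-box promoter elements, among them the Period and Cryptochrome genes and the repressor genes Nr1d1 and Ciart. The Period and Cryptochrome proteins accumulate through the day and then block CLOCK and BMAL1. In the SCN this loop runs in neurons that release gamma-aminobutyric acid (GABA) and neuropeptides such as vasopressin and vasoactive intestinal peptide, which carry the time signal to each other and to the rest of the brain. SCN neurons fire faster by day than by night.

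Of 19938 genes, 7 rose from early to late day (0.0351%) and 3 fell (0.015%) at an adjusted p under 0.05 with limma and Benjamini-Hochberg adjustment over all genes. The 7 that rose were the clock repressors Per2 and Ciart, the cold-inducible RNA-binding protein gene Rbm3, the interferon-induced Ifit3b, the protease inhibitor gene Ctla2a, Etnppl, an enzyme of phosphoethanolamine breakdown found in astrocytes, and Zfp536, a zinc-finger repressor of neuronal differentiation. The 3 that fell were Gem, a small GTPase that restrains voltage-gated calcium channels, Id2, an inhibitor of basic helix-loop-helix transcription factors, and the predicted gene Gm10561. At an unadjusted p under 0.05, 1151 genes (5.77%) were higher and 993 (4.98%) lower. In 78 genes (0.391%) all 6 late arrays lay above all 6 early arrays, and in 54 (0.271%) all 6 lay below. The median difference over all genes was 0.00113.

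The promoters of the named genes were searched for elements through which the clock and stress pathways act. Only among the named genes with a match, a window is shown for the 4 with the largest positive differences and the 3 with negative ones. Ifit3b, Ctla2a, Per2 and Rbm3 rose more than these, and each had no match or no promoter in the table. They come from the RefSeq table of the assembly GRCm38.p6, run 5′ to 3′ on the strand of the gene, and end at or before the start of transcription. Capitals mark the element, with up to 40 bases on each side.
Ciart, E-box, chr3:95882241-95882326, minus strand: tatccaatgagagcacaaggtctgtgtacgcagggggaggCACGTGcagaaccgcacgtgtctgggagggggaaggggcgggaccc
Tac1, E-box, chr6:7554960-7555045, plus strand: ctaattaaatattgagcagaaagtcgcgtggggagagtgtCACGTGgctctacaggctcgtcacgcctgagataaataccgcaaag
Cry1, E-box, chr10:85185069-85185154, minus strand: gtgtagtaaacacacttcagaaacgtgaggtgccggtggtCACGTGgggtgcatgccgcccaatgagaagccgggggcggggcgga
Per3, D-box, chr4:151044823-151044910, minus strand: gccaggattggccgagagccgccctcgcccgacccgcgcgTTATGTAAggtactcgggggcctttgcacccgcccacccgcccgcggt
Hsph1, E-box, chr5:149636316-149636374, minus strand: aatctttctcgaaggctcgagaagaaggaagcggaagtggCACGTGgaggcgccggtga
Kcnj6, heat shock core, chr16:94856691-94856752, minus strand: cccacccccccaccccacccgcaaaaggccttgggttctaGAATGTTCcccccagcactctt
Nfil3, ROR element on the reverse strand, chr13:52981040-52981091, minus strand: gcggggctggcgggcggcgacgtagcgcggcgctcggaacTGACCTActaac

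The motifs were the E-box CACGTG, bound by CLOCK and BMAL1, the D-box TTATGTAA, bound by DBP, TEF, HLF and NFIL3, the cAMP response element TGACGTCA, the ROR element TAGGTCA or TGGGTCA, bound by ROR and REV-ERB proteins, and the heat shock core GAANNTTC. They were searched on both strands in the 250 bases before the start, and none of them contains another. Of 19177 promoters of 15614 genes, 6.99% held the E-box, 0.741% the D-box, 2.02% the cAMP response element, 4.84% the ROR element and 5.78% the heat shock core, and 19.1% held at least 1 of them. Among the 46 genes named by rule, 38 had a promoter in the table and 13 of these held a match. This counts genes, some with more than 1 promoter, whereas the 19.1% counts promoters. The named genes also include every measured clock gene, whatever its difference. The 13 of 38 is therefore not a measure of enrichment among genes that changed. Ciart held 3 E-boxes, at 116, 58 and 44 bases before the start, a number reached by 16 of the 19177 promoters. The last of these stands in lower case in the window above. Per3 held 2 D-boxes, at 205 and 158 bases before the start, as did 4 promoters in all. Of the 10 genes that passed the test, 7 had a promoter in the table, and Ciart was the 1 with a match. A match describes these letters in this window and was not tested for binding.

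SCN markers were checked first. The SCN neuropeptide genes Avp (10.74 to 11.62 over the 12 arrays) and Vip (9.50 to 10.75) and the SCN transcription factor genes Six6 (7.56 to 8.34) and Lhx1 (6.41 to 7.29) were above the 30th percentile of gene means, 5.52, on every array. Oxytocin (Oxt), a marker of neighbouring hypothalamic neurons, ran from 11.70 to 12.19. Of 17 such markers measured, 16 had a mean at or above that percentile. The choroid plexus marker Ttr ran from 6.77 to 11.18. These values do not show that the tissue was SCN alone. Array background, the mean over 1190 olfactory and vomeronasal receptor genes, differed by 0.03 between windows (exact permutation within cycles, two-sided p = 0.35; 0.00880 to 0.0379 when 1 array was left out, p from 0.155 to 0.67), and the interquartile range by -0.00433 (exact permutation p = 0.82). Pituitary RNA was uneven. Growth hormone (Gh) ran from 5.34 to 9.22 in early day, highest at CT 26, CT 24 and CT 48, and from 4.92 to 7.33 in late day. The mean of the 12 measured pituitary markers was 6.08 to 6.75 in early and 6.05 to 6.39 in late day. Of the 12, 4 had a positive and 8 a negative difference, and the median was -0.08. Among them Gh and prolactin (Prl) had an unadjusted p under 0.05, both lower in late day, with differences of -1.89 ± 0.54 (SE) and -0.71 ± 0.29. At that p 4.98% of all genes were lower. Pomc, another of these markers, ran from 5.23 to 6.20 in early day and from 5.48 to 6.87 in late day. Without the arrays at CT 24 and CT 26, a choice made after seeing these values, 3 genes rose and 0 fell, all 3 of them among the 10, and each of the 10 had the same direction and an unadjusted p under 0.05.

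**Figure D1:**
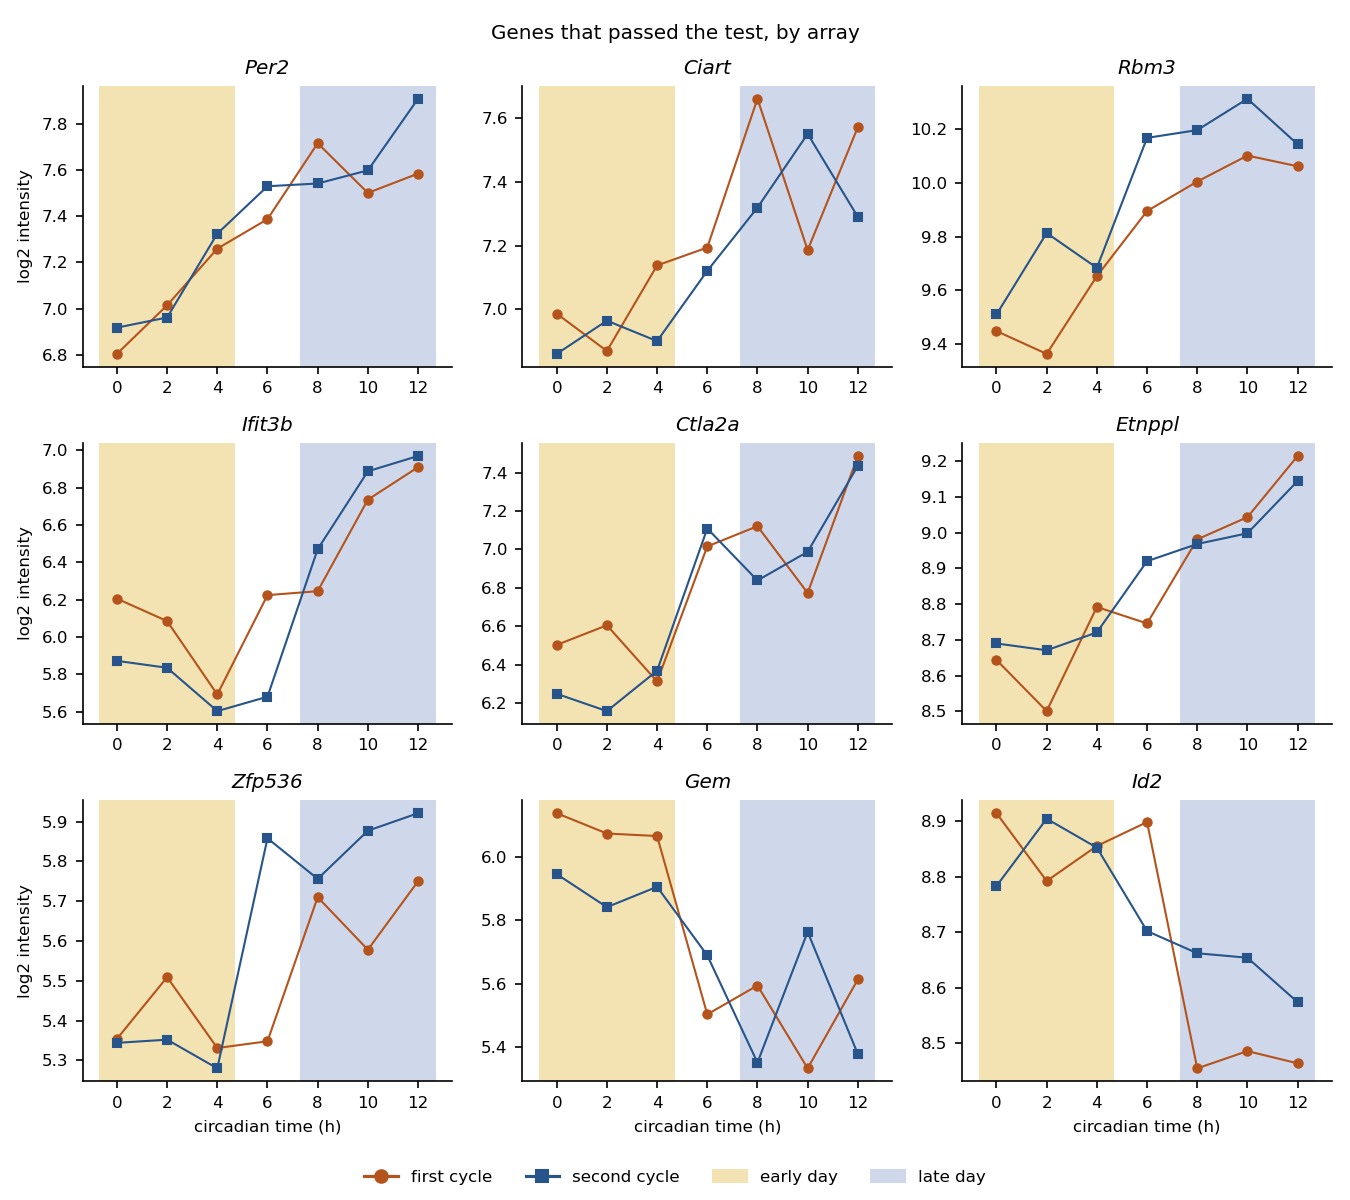
Log2 probe set intensity (vertical axes, each with its own range) of 9 of the 10 genes that passed the test against circadian time in hours, 1 point per array, first cycle as circles and second cycle as squares. Shading marks the early and late windows, the points at 6 h belong to neither, and in every panel the 6 late arrays lie wholly above or wholly below the 6 early arrays.

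Per2 encodes a core repressor of the clock (probe set 10356601). Its lowest, median and highest log2 intensities were 6.80, 6.99 and 7.33 in early day and 7.50, 7.59 and 7.91 in late day. All late arrays were above all early arrays. In both cycles the early array at circadian time 4 was the highest of its window. The rise was 0.60 ± 0.09 (SE), or 1.51-fold, with a limma adjusted p of 0.0327, and was 0.58 in the first cycle and 0.62 in the second.

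Ciart, also called Chrono, encodes a repressor that binds BMAL1 (probe set 10373452). It went from 6.86, 6.93 and 7.14 (lowest, median and highest) to 7.19, 7.43 and 7.66, with no overlap but a narrow gap. The rise was 0.48 ± 0.08, or 1.39-fold (limma adjusted p = 0.0441), and was close to 0.48 in each cycle. A second probe set annotated to Ciart disagreed. Its difference was 0.18 ± 0.12, with an adjusted p of 0.620 in the fit over all probe sets. The pairing of either probe set with Ciart is the platform annotation's and was not checked on sequence.

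The other clock repressors were measured on the same arrays. Of 11, 10 had a positive difference and 6 an unadjusted p under 0.05 in that direction, 1 in the other, and the list's median was 0.15 against 0.00113 over all genes. At that p 5.77% of all genes were higher and 4.98% lower. Cry1, a Cryptochrome that blocks CLOCK and BMAL1, was 6.98 to 7.34 in early day and 7.44 to 7.77 in late day, without overlap. Its difference was 0.38 ± 0.07 with an adjusted p of 0.0818. Per3, another Period gene, differed by 0.33 ± 0.06 (adjusted p = 0.0927), also without overlap. When the genes below the 30th percentile of mean intensity were left out, Cry1 (adjusted p = 0.0450) and Per3 (0.0493) passed as well.

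Cry2 differed by 0.15 ± 0.06 and the light-responsive repressor gene Bhlhe40 by 0.18 ± 0.06, each with an unadjusted p under 0.05 and an adjusted p of 0.404 and 0.363. Bhlhe41 differed by 0.10 and Timeless by 0.11. Per1, the Period gene that responds to light and to cAMP, did not follow Per2 in size. It was 7.55 to 7.77 in early day and 7.49 to 7.87 in late day, with differences of -0.04 in the first cycle and 0.20 in the second and an adjusted p of 0.646. At circadian time 6, between the windows, Per1 was 7.74 and 8.11.

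Nr1d1 (REV-ERBα), the repressor of Arntl transcription, had the opposite sign. Its lowest, median and highest values were 9.36, 9.78 and 9.85 in early day and 8.91, 9.35 and 9.78 in late day. The windows overlapped, and in both cycles the late array at circadian time 8 was the highest of its window and that at 12 the lowest. The difference was -0.36 ± 0.12 with an adjusted p of 0.329. Its paralog Nr1d2 differed by 0.06 ± 0.06, with 0.16 in the first cycle and -0.04 in the second.

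The activators differed little between windows. Of 5 measured, none passed and 1, Arntl2, had an unadjusted p under 0.05, with a difference of -0.14 ± 0.06. Arntl differed by -0.11 ± 0.07 (adjusted p = 0.613) and Clock by -0.05 ± 0.06. The nuclear receptors Rora and Rorb, which activate Arntl, had differences of 0.16 ± 0.09 and -0.15 ± 0.11. The list's median was -0.11. Among the D-box factors, Dbp, an output transcription factor driven by CLOCK and BMAL1, went from 7.60, 7.80 and 7.98 to 7.95, 8.06 and 8.29. The windows met at their edges. Its difference was 0.27 ± 0.07, alike in the 2 cycles at 0.26 and 0.28, with an adjusted p of 0.195. Tef differed by 0.20 ± 0.05 (adjusted p = 0.242), Hlf by 0.12 ± 0.06 and the D-box repressor gene Nfil3 by -0.09 ± 0.09. Of 20 clock protein kinases, phosphatases and ubiquitin ligases, none had an unadjusted p under 0.05, and the smallest p was that of the Cryptochrome ligase gene Fbxl21, with a difference of 0.20 ± 0.10.

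**Figure D2:**
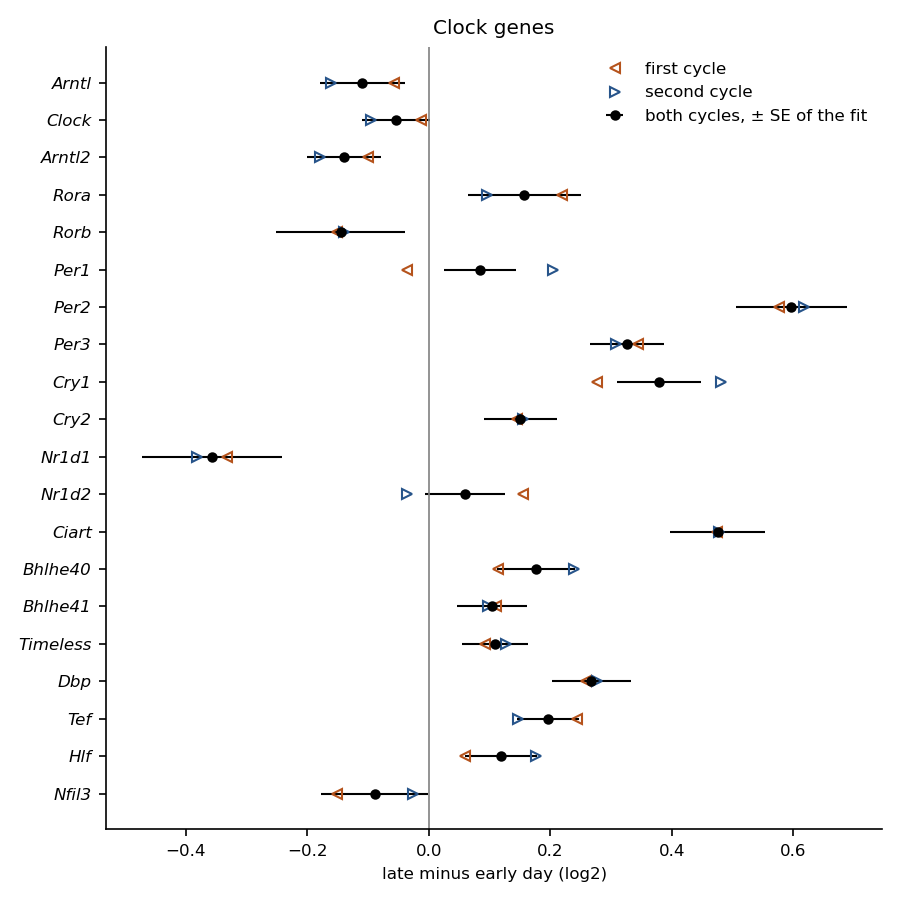
Late minus early difference (log2, horizontal axis) of each measured clock gene: filled points and bars are the fit over both cycles with its standard error, and open triangles are the first and second cycle alone. Per2 and Ciart lie at 0.60 and 0.48, Nr1d1 at -0.36, and the triangles of Per1 and Nr1d2 fall on either side of 0.

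Rbm3 had the smallest adjusted p, 0.00433 (probe set 10358454). It encodes an RNA-binding protein that is induced by mild cooling. Its lowest, median and highest values were 9.36, 9.58 and 9.81 in early day and 10.01, 10.12 and 10.31 in late day, with no overlap. The rise was 0.56 ± 0.06, or 1.47-fold, with 0.57 in the first cycle and 0.55 in the second. The 3 probe sets annotated to Rbm3 rose by 0.54 to 0.57, and each passed in the fit over all probe sets. Their sequences were not checked, so they may not be independent measurements. Cirbp, the other cold-inducible RNA-binding protein gene listed, was 8.90 to 9.34 in early day and 9.28 to 9.52 in late day, with a difference of 0.22 ± 0.06 (adjusted p = 0.272).

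Cytosolic heat shock chaperones, which fold proteins and are induced by warming, had mostly negative differences. Of 22, none passed, and 6 were lower and none higher at an unadjusted p under 0.05, where 4.98% of all genes were lower. Differences were negative in both cycles in 16, a count with no share over all genes beside it. The median was -0.07. Hsph1, a nucleotide exchange factor of HSP70, was 9.92, 10.20 and 10.28 in early day and 9.50, 9.76 and 9.89 in late day. Its windows did not overlap, and its difference was -0.45 ± 0.08 with an adjusted p of 0.0518, or 0.0274 without the dim genes. The HSP90 co-chaperone genes Stip1 and Ahsa1 differed by -0.28 ± 0.06 and -0.26 ± 0.06, and the constitutive HSP70 gene Hspa8 by -0.14 ± 0.05. The inducible HSP70 gene Hspa1a differed by 0.01 ± 0.12. With the pituitary marker mean as a covariate, 3 of the 22 had an unadjusted p under 0.05 and the median was -0.02. In that fit 1587 of 19938 genes had such a p in either direction.

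Endoplasmic reticulum chaperones were mixed. Of 22, none passed, 2 were higher and 4 lower at an unadjusted p under 0.05, against 5.77% and 4.98% of all genes. Sdf2l1, a cofactor of the chaperone BiP, was 7.35 to 7.48 in early day and 7.17 to 7.28 in late day, without overlap (difference -0.20 ± 0.05, adjusted p = 0.188). Calr, a lectin chaperone gene, differed by -0.21 ± 0.06, whereas P4hb, a protein disulphide isomerase gene, differed by 0.18 ± 0.05.

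Ifit3b (probe set 10462621) belongs to a family of interferon-induced genes with tetratricopeptide repeats and is a close paralog of Ifit3, so the 2 genes may share signal on the array. Its lowest, median and highest values were 5.60, 5.85 and 6.21 in early day and 6.25, 6.81 and 6.97 in late day. The windows nearly met in the first cycle and were well apart in the second. The rise was 0.82 ± 0.13, or 1.77-fold (limma adjusted p = 0.0327), with 0.64 in the first cycle and 1.01 in the second.

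Ifit3 was 7.47 to 8.30 in early day and 8.43 to 9.45 in late day, without overlap, and differed by 0.96 ± 0.17 (adjusted p = 0.0669). Of 16 interferon-induced genes measured, 1 rose, 4 were higher and 1 lower at an unadjusted p under 0.05, and the median was 0.15. Over all genes 5.77% were higher and 4.98% lower at that p. Bst2, a membrane protein that tethers virus particles, differed by 0.35 ± 0.08 and Ifi27l2a by 0.66 ± 0.22. Irf9, a subunit of the interferon-activated transcription factor, differed by -0.15 ± 0.06. With the oligodendrocyte marker mean of each array as a covariate, the list's median was -0.04, and Ifit3b differed by 0.56 with an unadjusted p of 0.00278 and an adjusted p of 0.762.

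Ctla2a encodes an inhibitor of cysteine proteases (probe set 10409876). It went from 6.16, 6.34 and 6.61 to 6.77, 7.05 and 7.49, without overlap, and in both cycles the array at circadian time 12 was the highest. The rise was 0.74 ± 0.12, or 1.67-fold (limma adjusted p = 0.0327). Etnppl (probe set 10496077) went from 8.50, 8.68 and 8.79 to 8.97, 9.02 and 9.21. In each cycle its late values were ordered with time, lowest at circadian time 8 and highest at 12. The rise was 0.39 ± 0.06, or 1.31-fold (adjusted p = 0.0327). Zfp536 (probe set 10562532) went from 5.28, 5.35 and 5.51 to 5.58, 5.75 and 5.92. Its mean was close to the 30th percentile of gene means, and 1 early array, at CT 26, stood near the late ones. The rise was 0.40 ± 0.06, or 1.32-fold (adjusted p = 0.0327).

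Gem (probe set 10503334) is a target of the cAMP-responsive factor CREB. It ran from 5.84 to 6.14 in early day and from 5.33 to 5.76, with a median of 5.49, in late day, without overlap. Early day was 1.40-fold above late day, a fall of 0.49 with an SE of 0.08 (limma adjusted p = 0.0327). Of 30 immediate early genes and CREB targets measured, Gem was the 1 that fell, 5 with Gem were lower and 1 higher at an unadjusted p under 0.05, and 17 were lower in both cycles. At that p 4.98% of all genes were lower and 5.77% higher. Ier5, an immediate early gene, differed by -0.21 ± 0.07, and Sik1, a kinase that shuts off CREB coactivators, by -0.23 ± 0.09.

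Id2 (probe set 10399691) was narrow within each window, 8.78, 8.85 and 8.91 in early day and 8.46, 8.53 and 8.66 in late day. All late arrays lay below all early arrays. The fall was 0.30 with an SE of 0.05, so that early day was 1.23-fold higher (limma adjusted p = 0.0461), and was larger in the first cycle (-0.38) than in the second (-0.22). The difference between cycles did not pass for any gene. Id2 was among 16 SCN identity transcription factors, of which 5 were lower and 1 higher at an unadjusted p under 0.05. Over all genes 4.98% were lower and 5.77% higher. The homeobox genes Dlx1, Dlx2, Zfhx3 and Zfhx4 differed by -0.19, -0.17, -0.13 and -0.15, with adjusted p of 0.387 or more. The list as a whole did not fall. Of the 16, 10 had a positive and 6 a negative difference, and the median was 0.03. In both cycles 4 were higher and 6 lower. Gm10561 (probe set 10346321), a predicted gene, went from 7.32, 7.63 and 7.75 to 6.98, 7.11 and 7.28 (adjusted p = 0.0359).

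The arrays at circadian time 6 belonged to neither window, and the 10 genes were in different places there. Ctla2a was 7.02 at CT 30 and 7.11 at CT 54, and Gem was 5.50 and 5.69. Both genes were already inside their late range. Ifit3b was 6.22 in the first cycle, between the windows, and 5.68 in the second, within the early range. Id2 was 8.90 in the first cycle, within the early range, and 8.70 in the second, between the windows. Zfp536 was 5.35 at CT 30, within its early range, and 5.86 at CT 54, within its late range. The order was the reverse for Ciart, with 7.19 in the late range and 7.12 in the early range. Etnppl was 8.75, within the early range, and then 8.92, between the windows. Per2 (7.39 and 7.53), Rbm3 (9.89 and 10.17) and Gm10561 (7.30 and 7.19) were between the windows in the first cycle and within the late range in the second. Each value is a single pool, and these patterns were not tested.

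The 10 night arrays were set beside the windows for some of the same genes. Those at CT 40, CT 62 and CT 64 had a narrower range. Their interquartile ranges were 2.48, 2.67 and 2.65, against 2.77 to 2.87 in the windows. Their backgrounds were 4.51, 4.35 and 4.32, against 4.04 to 4.19. How this bears on the lowest and highest night values was not tested. The lowest and highest night values of Per2 were 6.80 and 7.41, below all late-day arrays. For Gem they were 4.96 and 5.82, below all early-day arrays, so the early-day window held the highest values measured. For Ifit3b they were 6.28 and 7.35, above all early-day arrays, so the lowest value measured was in the early-day window.

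**Figure D3:**
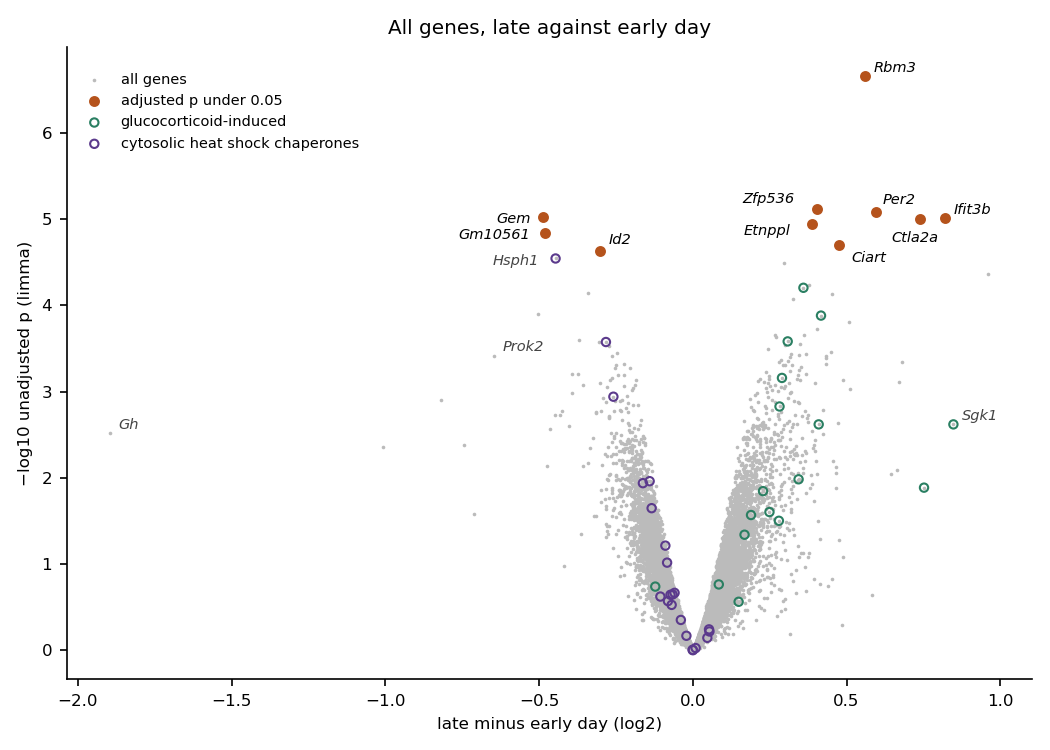
Unadjusted p of limma's moderated test (−log10, vertical axis) against late minus early difference (log2, horizontal axis), 1 point per gene for 19938 genes. Filled points are the 10 genes that passed, Rbm3 highest at an adjusted p of 0.00433. Green circles are the 17 glucocorticoid-induced genes, 16 of them right of 0, and purple circles the 22 heat shock chaperones.

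Glucocorticoid-induced genes respond to the adrenal hormone corticosterone, which in mice peaks near the start of night. None of 17 measured passed the test, but 14 had an unadjusted p under 0.05 and were higher in late day, where 5.77% of all genes were. The list's median was 0.28. In 4 of the 17 all late arrays lay above all early arrays, as in 0.391% of all genes. Zbtb16, a zinc-finger transcription factor gene, was 6.51, 6.64 and 6.86 in early day and 6.91, 7.03 and 7.14 in late day (difference 0.36 ± 0.07, limma adjusted p = 0.0830). Tsc22d3 (Gilz), a leucine zipper gene, was 6.94 to 7.16 and 7.21 to 7.71 (0.42 ± 0.08, adjusted p = 0.131). The other 2 without overlap were the metallothionein gene Mt2 (0.31 ± 0.07) and Klf15, a Krüppel-like factor gene (0.28 ± 0.07).

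Sgk1, the serum- and glucocorticoid-regulated kinase gene, had the largest difference of the list, 0.85 ± 0.23. It was 7.08, 7.23 and 7.32 in early day, and in late day it was 7.22 and 7.48 at circadian time 8, 7.78 and 8.19 at 10, and 9.04 and 8.62 at 12. Its adjusted p was 0.272. When linear time within each window was added to the fit, so that such a slope no longer counted as spread, the adjusted p was 0.00188 for Sgk1 and 0.00269 for Tsc22d3, and 6 of the 17 passed. In that fit 34 genes rose and 9 fell, the 10 genes above among them. Dusp1, a phosphatase gene of the list that is also an immediate early gene, differed by -0.12 ± 0.09.

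Oligodendrocyte markers differed between the same windows. All 14 measured had a positive difference in both cycles, 12 had an unadjusted p under 0.05, none passed, and the median was 0.31. At that p 5.77% of all genes were higher. Mag, a myelin adhesion protein gene, was 8.09, 8.50 and 8.79 in early day and 8.70, 9.04 and 9.19 in late day (0.45 ± 0.08, limma adjusted p = 0.0861). The mean of the 14 was 8.26 to 8.85 over the early arrays and 8.60 to 9.07 over the late ones, so the windows overlapped. In bulk tissue, fewer cells of a type and less RNA per cell cannot be told apart. With this mean as a covariate, 3 of the 17 glucocorticoid-induced genes had an unadjusted p under 0.05, the list's median was 0.15, and the difference of 14 of the 17 was smaller in size. Over all 19938 genes, 2144 had such a p in either direction without the covariate and 1097 with it. Zbtb16 then differed by 0.33 and Sgk1 by 0.27. With the covariate 2 genes passed, Rbm3, which rose by 0.64, and Gm10561, which fell by 0.67. All 10 genes had the same direction and an unadjusted p under 0.05.

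**Figure D4:**
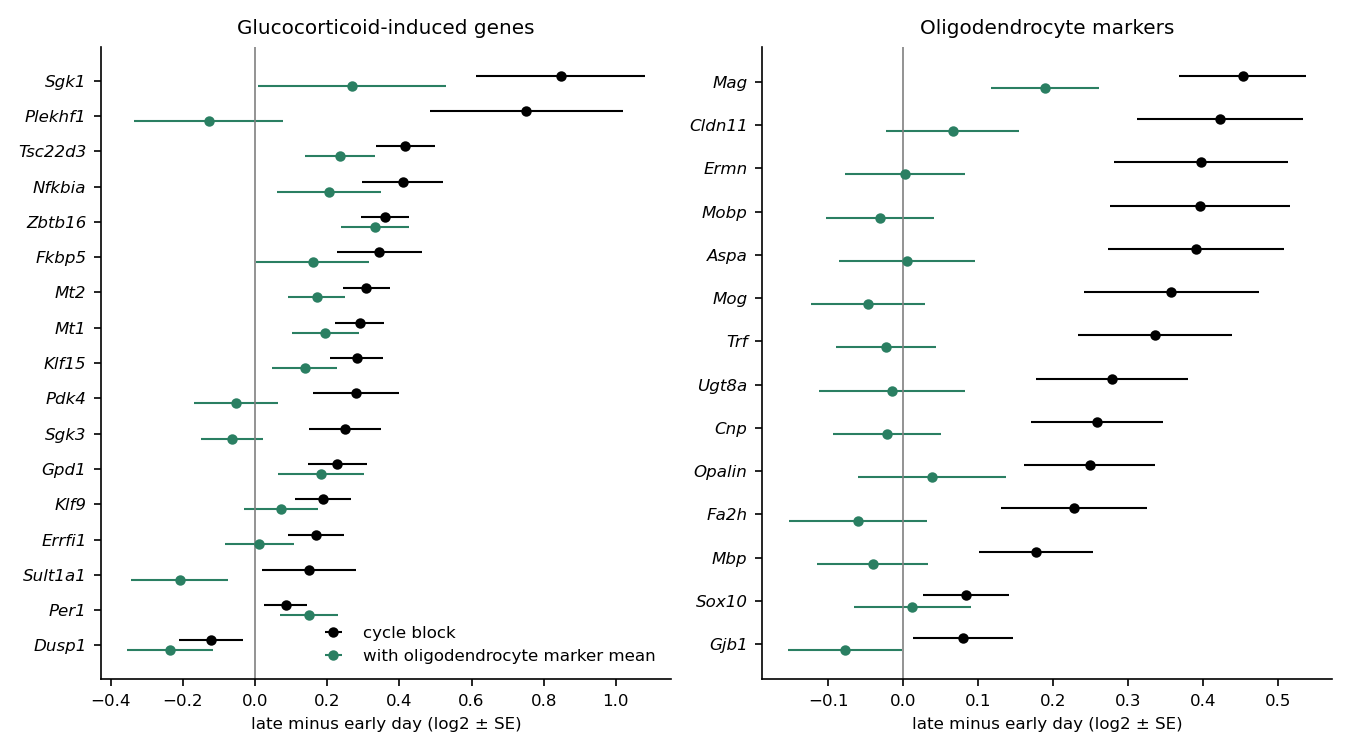
Late minus early difference with its standard error (log2, horizontal axes) of glucocorticoid-induced genes (left) and oligodendrocyte markers (right), from the fit with the cycle block (black) and with each array's oligodendrocyte marker mean added (green). Sgk1 goes from 0.85 to 0.27 and Zbtb16 from 0.36 to 0.33. The right panel's green values are close to 0 by construction, since the covariate is the mean of those genes.

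Markers of other cells were set beside these, and beside the 5.77% of all genes higher and 4.98% lower at an unadjusted p under 0.05. Of 12 neuron markers, none were higher and 2 lower at an unadjusted p under 0.05, with a median of -0.07 and an array mean of 9.81 to 10.01 in early day and 9.71 to 9.95 in late day. Of 15 astrocyte markers 4 were higher and 1 lower. The lower one was Fabp7, a fatty acid binding protein gene of astrocytes, with a difference of -0.37 ± 0.09 (limma adjusted p = 0.194). Of 13 meningeal and fibroblast markers, 11 had a positive difference and 1 an unadjusted p under 0.05, with a median of 0.21 and array means of 6.56 to 7.62 in early and 6.56 to 7.79 in late day. None of 13 microglia markers had an unadjusted p under 0.05. Oligodendrocyte precursor markers gave 2 of 8 higher, endothelial and pericyte markers 2 higher and 1 lower of 15, ependymal, tanycyte and choroid plexus markers 2 lower of 14, and neighbouring hypothalamic neurons 1 higher and 1 lower of 17.

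**Figure D5:**
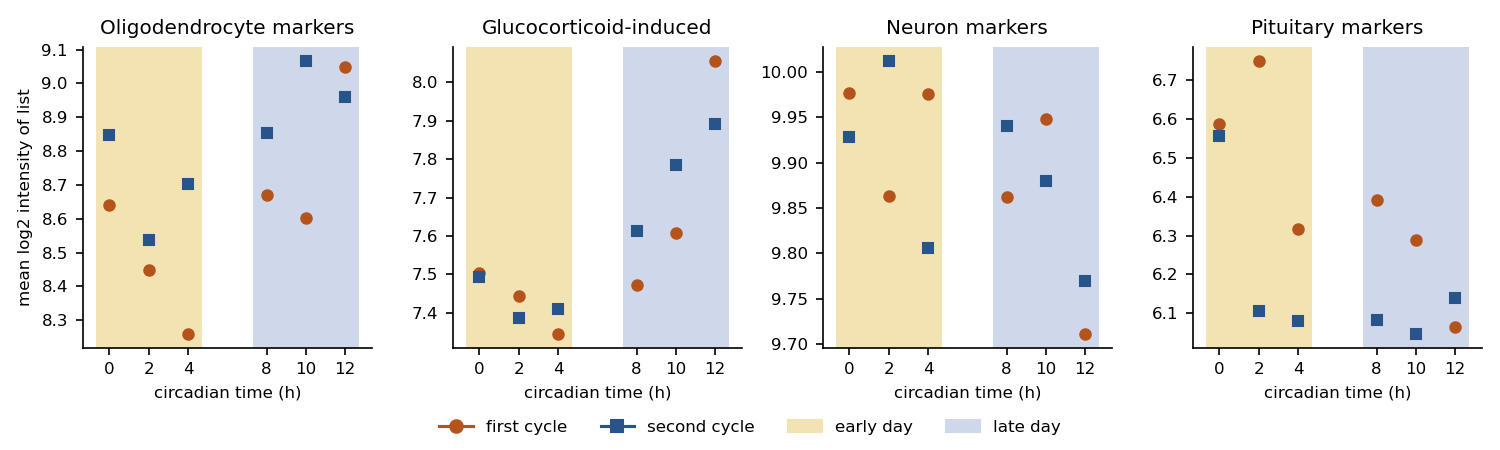
Mean log2 intensity over the members of 4 gene lists on each of the 12 arrays against circadian time in hours, first cycle as circles and second cycle as squares. Oligodendrocyte marker means are 8.26 to 8.85 in early and 8.60 to 9.07 in late day, glucocorticoid-induced means 7.34 to 7.50 and 7.47 to 8.06, and the highest pituitary marker mean, 6.75, is at CT 26.

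SCN neuropeptide genes split. Of 14, none passed, and 4 were higher and 3 lower at an unadjusted p under 0.05, against 5.77% and 4.98% of all genes. Tac1, the substance P precursor gene, was 9.03, 9.29 and 9.35 in early day and 9.43, 9.61 and 9.85 in late day, without overlap (0.40 ± 0.08, limma adjusted p = 0.170). Avp, the vasopressin gene and an E-box-driven clock output, was 10.74 to 11.46 and 11.23 to 11.62 (0.40 ± 0.10, adjusted p = 0.194). Vip, which couples SCN neurons to each other, differed by 0.46 ± 0.16 and neuromedin U (Nmu) by 0.33 ± 0.11. Prok2, a secreted output signal that holds back activity, went the other way. It was 6.74, 7.16 and 7.45 in early day and 6.16, 6.43 and 6.96 in late day (-0.65 ± 0.14, adjusted p = 0.186), with both values at circadian time 12 the lowest of their windows. With linear time within the windows its adjusted p was 0.0199. Cck and Gal, the cholecystokinin and galanin genes, differed by -0.28 ± 0.12 and -0.36 ± 0.16. Among 15 neuropeptide receptor genes, 1, the somatostatin receptor gene Sstr1, had an unadjusted p under 0.05 (0.16 ± 0.06).

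Intracellular signalling genes had more negative than positive differences, with small medians. They were negative in 11 of 15 MAP kinase and Ras-like genes, 16 of 23 RGS and G protein genes and 19 of 22 cAMP signalling genes. The medians were -0.05, -0.01 and -0.06, against 0.00113 over all genes, whose median absolute difference was 0.0561. In both cycles 6, 12 and 14 of them were lower. At an unadjusted p under 0.05, 5.77% of all genes were higher and 4.98% lower. Rgs16, which ends G protein signals in the SCN, was 9.66 to 10.10 in early day and 9.08 to 10.04 in late day. The late arrays at circadian time 8 were at 10.04 and 9.89, and the other 4 were at 9.23 or below. Its difference was -0.47 ± 0.15 (limma adjusted p = 0.329), and of 23 genes of its list 2 were lower and none higher at an unadjusted p under 0.05. Among 15 MAP kinase and Ras-like genes 2 were higher and 3 lower. Rasl11b, a small GTPase gene, differed by -0.45 ± 0.12, Rasgrp1, a Ras exchange factor gene, by -0.25 ± 0.07, and Rasd1, a Ras-like gene induced by glucocorticoid, by 0.65 ± 0.22. Of the cAMP signalling genes 2 were lower at that p, and the adenylyl cyclase gene Adcy2 differed by -0.14 ± 0.06.

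Receptor and channel genes had small differences, more of them negative than positive. Over all genes the median was 0.00113, and 4.98% were lower and 5.77% higher at an unadjusted p under 0.05. Of 19 glutamate receptor genes, 18 were negative and 4 had an unadjusted p under 0.05, with a median of -0.09. The kainate receptor gene Grik2 differed by -0.19 ± 0.06 (limma adjusted p = 0.356). Of 18 GABA transmission genes, 16 were negative, 3 were lower and 1 higher at that p, and the median was -0.10. Gabrg3, a GABA-A receptor subunit gene, did not overlap between windows (-0.13 ± 0.05), and Slc12a2, the chloride importer gene NKCC1, differed by 0.23 ± 0.08. With the oligodendrocyte marker mean as a covariate, none of the 19 and none of the 18 had an unadjusted p under 0.05, and the medians were -0.00685 and -0.02. In that fit 1097 of 19938 genes had such a p in either direction, so lists of this size would hold few at that share. Slc12a2 then differed by -0.03.

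Of 27 potassium channel genes 2 were higher and 4 lower at an unadjusted p under 0.05, and Kcnj6 (GIRK2), an inward rectifier opened by G proteins, differed by -0.22 ± 0.07. Of 28 calcium, sodium and cation channel genes 1 was higher and 4 lower, and Cacna1g, a low-voltage-activated calcium channel gene, differed by -0.19 ± 0.06. Of 27 secretory granule and vesicle release genes 2 were higher. The shares over all genes at that p were 5.77% higher and 4.98% lower. Unc13a, a vesicle priming gene, differed by 0.33 ± 0.10 on 1 probe set but by 0.01 and -0.13 on its other 2.

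Metabolic genes stood near the level of all genes, of which 5.77% were higher and 4.98% lower at an unadjusted p under 0.05. Among 39 respiratory chain genes 3 were higher and 1 lower at an unadjusted p under 0.05, with the complex I gene Ndufs3 at 0.16 ± 0.05. None of 19 glycolysis genes had such a p, and the pyruvate dehydrogenase kinase gene Pdk2 came closest (0.14 ± 0.07). Of 21 cholesterol and fatty acid synthesis genes 2 were higher, and Hmgcs1, an early enzyme gene of cholesterol synthesis, was 9.25 to 9.36 in early day and 9.38 to 9.61 in late day, without overlap (0.15 ± 0.05, limma adjusted p = 0.346). Of 20 ribosome biogenesis and translation genes 2 were higher and 1 lower, with the nucleolar gene Ncl at 0.13 ± 0.05. Of 14 NAD and energy-sensing genes 1 was higher, Nampt, the rate-limiting enzyme gene of NAD salvage (0.15 ± 0.06).

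The change from early to late day was then compared between the 2 cycles. No gene passed (0%), 710 (3.56%) had an unadjusted p under 0.05, and the smallest adjusted p was 0.999 in limma's test of the interaction. The 3 genes with the smallest p were 1700008P02Rik, 4930520O04Rik and Slc9a4, a sodium-proton exchanger gene. Slc9a4 differed by 0.21 in the first cycle and by -0.27 in the second. A p that misses the threshold does not show that the cycles were alike.

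The count of genes that passed depended on single arrays. Leaving out any 1 of the 12 arrays left 1 to 4 genes that rose and 0 or 1 that fell, and Rbm3 alone passed in all 12 of these fits. Without the genes below the 30th percentile of mean intensity, 13 rose and 5 fell, the 10 genes above among them. The 8 others were Ifit3, Mag, Cry1, Zbtb16, Per3 and the interferon-induced phospholipid scramblase gene Plscr1, which rose, and Hsph1 and the membrane-anchored matrix metalloproteinase gene Mmp14, which fell. Mmp14 was 6.40 to 6.58 in late day, below its lowest early array at 6.67. Plscr1 was 6.21 to 6.37 in early day and 6.50 to 6.70 in late day, also without overlap. Their differences in the fit over all genes were -0.34 ± 0.06 and 0.30 ± 0.05 (limma adjusted p = 0.0861 and 0.0532).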

How the data were processed

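The values are log2 probe set intensities from Affymetrix MoGene 1.0 ST arrays that the authors normalised by RMA (version 1.3.1.187, in Affymetrix Expression Console) and deposited, per the submitters' processing notes. Background and summarisation settings and a genome build are not given in the sources used here. RNA was amplified with NuGen kits, per the labels' protocols. No further normalisation was applied, and since arrays carry no read depth, their number limits the precision.

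Of 35556 probe sets, 21789 had 1 gene symbol in the platform annotation, 1621 several and 12146 were not listed. Each of 19938 genes was represented by its probe set of highest mean over the 24 arrays (999 genes had more than 1). Late minus early was fitted with limma 3.58.1 in R 4.3.3 (lmFit and eBayes) with a cycle term over 12 arrays (9 residual degrees of freedom), two-sided, with Benjamini-Hochberg adjustment over all genes and a threshold of 0.05. The difference between cycles was the interaction term. ± is the fit's standard error, and a list's median and counts are descriptions. No share over all genes is given here for signs alone or for signs in both cycles. The fit was tested on simulated data. Nothing pairs arrays beyond the cycle.

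The windows, gene lists and tests were chosen with earlier results of these data known. Named by rule were called genes above the 30th percentile of mean intensity with the same sign in both cycles (predicted genes left out), all measured clock genes, and from each other pathway list up to 3 called members, or the one of smallest p. Gm10561, Ifit3 and the further list members given with values were named after their values were seen. Alternatives covered filters, normalisation, weights, covariates, time slopes, other sets of arrays and leaving out each array. Tables were made in Python 3.11.15 with pandas 2.3.3 and NumPy 2.4.6, and figures in matplotlib 3.10.9.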

Additional observations from a re-analysis of the deposited data

Results flagged for a closer look

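In 102 groups of 6 arrays (the early and the late window of each named gene and array measure), 5 held 1 array whose gap to its nearest neighbour was large against the group's range (Dixon's test), which chance gives in about 1 in 20 groups. The highest early-day value of Zfp536, 5.51 at CT 26, stood 0.675 of the range from the next. The lowest early-day value of Nr1d1 was 9.36, also at CT 26, and the highest early-day value of Unc13a was 9.45, again at CT 26. The highest late-day value of Dbp was 8.29, at CT 56. The lowest early-day value of 4930520O04Rik, a predicted gene, was 4.05, at CT 28. Array CT 26 accounts for 3 of the 5.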

How the results depend on the processing

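The counts of genes that rose and fell, 7 and 3, changed with most settings, and the causes were not tested. They were 13 and 5 without genes below the 30th percentile, 34 and 9 with time slopes within the windows, 3 and 0 without the arrays at CT 24 and CT 26, and 1 and 0 at a threshold of 0.01 or with array background as a covariate. With the oligodendrocyte covariate they were 1 and 1. Without the cycle block, 11 genes rose. In the fit over all 21789 probe sets 5 fell, a count of probe sets, in which a gene can enter more than once. The counts of genes were 0 and 0 in fits of all 24 arrays, of the inner times (fewer arrays), of the first cycle, of the second cycle, and with the pituitary covariate. In these fits limma gave, in that order, 1178, 1339, 1042, 1580 and 1587 genes at an unadjusted p under 0.05. The fit of all 24 arrays included the narrow-range night arrays at CT 40, CT 62 and CT 64. Leaving out each array in turn gave 1 to 4 and 0 to 1, and Id2 passed in none of these fits. All 10 genes kept their direction in every setting that tested them, and with the 50th percentile filter 7 were tested and all 7 passed. The difference between cycles was 0 genes under every setting run. The interquartile range difference ran from -0.0136 to 0.00670 when 1 array was left out, with exact permutation p from 0.45 to 0.99. Signs turned for Arntl2 (0.00178) and Slc12a2 (-0.0339) with the oligodendrocyte covariate, Per1 in the first cycle (-0.0362), Nr1d2 in the second (-0.0362) and Nfil3 without CT 24 and CT 26 (0.0324). Arrays were not paired beyond the cycle block. The labels link no early-day array to a particular late-day array, and no time had a second array within a cycle.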
